A study of Mus musculus with 36 samples.

Results

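The lot 7 pair consists of 1 female and 1 male line of transformed mouse astrocytes derived from the same lot, which the series describes as a separate litter. The pair was chosen by its labels, and it accounts for 8 of the 36 libraries of the series. The groups used here are the lot 7 female line (4 libraries), the lot 7 male line (4 libraries) and the 8 lines of lots 6, 8, 11 and 12 (28 libraries, 3 or 4 per line), which form a female and a male line in each lot. All 10 lines carry the genotype Nf1-/- DNp53, and were grown in DMEM/F12 with fetal bovine serum and antibiotics with no treatment listed, so no group retains Nf1 or lacks the dominant-negative p53. The labels give the litters no age and leave it unsaid whether the 4 libraries per line came from different cultures. With 1 line per sex and lot, sex and line cannot be told apart within the pair. RNA was profiled by BRB-seq, in which polyadenylated transcripts of many samples are barcoded, pooled and counted at their 3' ends. The title of the series concerns NF-kB and STAT3 signalling, and genes of both pathways are given below with the other programmes.

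Nf1 encodes neurofibromin, a GTPase-activating protein that switches off Ras, and cells without it have more active Ras signalling. DNp53 is a dominant-negative form of p53, which disables the remaining p53 protein. Astrocytes lacking both functions are used as a model of glioma, and they retain glial proteins such as vimentin, nestin and connexin 43 to a variable extent.

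The lot 7 female libraries held 5004389 to 5973277 counts and the lot 7 male libraries 6350741 to 6889110, within 4358098 to 7562901 over all 36. In these libraries 3 counts corresponded to 0.468 to 0.586 CPM (counts per 1e+06, relative to the TMM-scaled library size) in the female line and to 0.415 to 0.476 CPM in the male line. Levels below are in CPM on this scale. The 4 Y-linked genes Ddx3y, Eif2s3y, Kdm5d and Uty added up to 0.468 to 1.76 CPM in the female libraries, against 10.9 to 13.6 CPM in the male libraries, and Xist had 3.13 to 7.65 CPM in female and 0 to 0.289 CPM in male libraries, so both sex labels fit. Nf1 had a mean of 1.98 CPM in each line, and counts at the 3' end cannot show the deletion. Of the 15 astrocyte markers, Gfap and Gjb6 had 0 counts in both lines. Aqp4, Slc1a2, Slc1a3, Aldh1l1 and S100b averaged 0.156 to 0.865 CPM in the female and 0 to 0.44 CPM in the male line. Gja1, Clu, Apoe, Glul and Sox9 were present, at means of 5.35 CPM or more in each line. Vim and Nes, which are not in the astrocyte list, were present too. Replicate 4 stood apart in both lines by its share of counts from mitochondrial genes, at 0.684% against 1.24 to 1.36% in the other female libraries, and at 0.658% against 1.05 to 1.18% in the other male libraries.

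Between the 2 lines, 630 of 11717 autosomal genes tested were higher in the female line (5.38%) and 636 were lower (5.43%), with edgeR's quasi-likelihood test and Benjamini-Hochberg adjustment over all 12173 genes tested. These p-values rest on the spread among libraries within a line, which may be technical. Library totals without TMM scaling gave 769 higher and 514 lower, 59.9% higher against 49.8%. Over the same genes the median log2 fold change, female over male, was 0.0067, and the counts of the gene lists below are read beside these shares and this median. Without both replicate 4 libraries, 430 genes were higher and 441 lower, and 809 of the 1266 calls were kept. The difference within lot 7 departed from the mean difference between the sexes in the other 4 lots for 1009 autosomal genes (8.61%), 501 of them more positive and 508 more negative in lot 7. The other pairs ranged from 195 higher and 247 lower in lot 12 to 1576 higher and 1661 lower in lot 6.

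**Figure D1:**
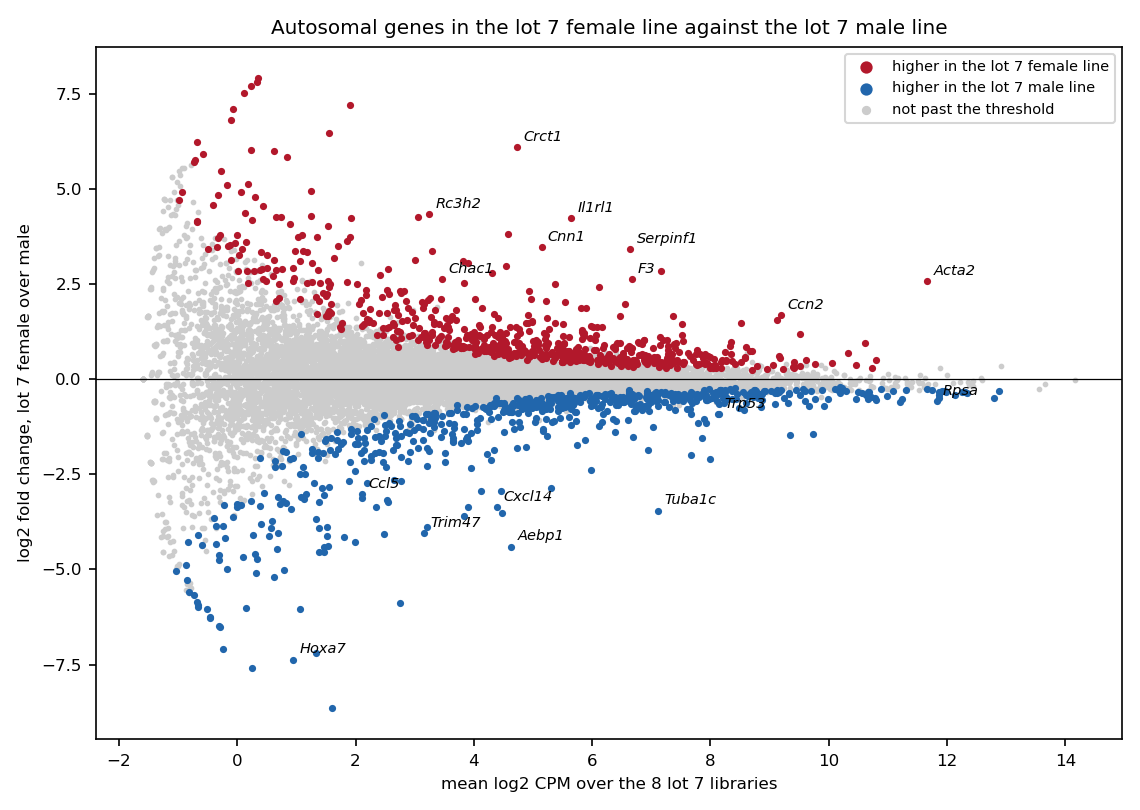
Log2 fold change of each autosomal gene (vertical axis, lot 7 female over male) against its mean log2 CPM over the 8 lot 7 libraries (horizontal axis). The 630 genes above the zero line in red and the 636 below it in blue passed an adjusted p of 0.05, and Acta2 is the labelled gene farthest to the right among those higher in the female line.

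Smooth muscle type contractile genes set the lines apart. Of the 22 contractile and cytoskeletal genes tested (3 others were too low), 8 were higher in the female line and 0 lower, with a median log2 fold change of 0.293. Acta2 (smooth muscle actin, chromosome 19, 34241090 to 34255590, GRCm38) had 8226, 8023, 8206 and 7378 CPM in the female libraries, against 1370, 1230, 1145 and 1574 CPM in the male libraries. The groups did not overlap, and the log2 fold change was 2.58 ± 0.14 (SE, here and below for fold changes; edgeR adjusted p = 3.03e-16). Among the 8 other lines Acta2 ranged from 1845 to 14790 CPM, so the male line was the lowest of 10 and the female line the third highest.

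Cnn1 (calponin, which binds actin and restrains myosin) had 114.9, 113.0, 130.9 and 111.0 CPM in female libraries, against 7.23, 13.4, 9.83 and 11.8 CPM in male libraries (log2 fold change 3.47 ± 0.42, adjusted p = 1.70e-07). Lmod1 (leiomodin, which nucleates actin filaments) had 17.4, 27.8, 25.9 and 25.9 CPM in female libraries, against 2.15, 3.18, 5.23 and 0.692 CPM in male libraries (3.12 ± 0.49, adjusted p = 1.85e-05). For both genes the male line mean was the lowest of 10, but the lot 8 lines were close to it. Cnn1 averaged 10.57 CPM in the lot 7 male, 11.33 CPM in the lot 8 female and 12.55 CPM in the lot 8 male line. Lmod1 averaged 2.815, 2.965 and 2.917 CPM in the same 3 lines. The lot 7 female line lay within the range of the other 8 for both genes. Myl9 (the regulatory light chain of smooth muscle myosin) averaged 303 ± 94.2 CPM in the female and 95.3 ± 21.8 CPM in the male line (SD, n = 4 each, here and below; log2 fold change 1.67, adjusted p = 1.11e-05). Tagln (transgelin, an actin-binding protein) averaged 1111 ± 54.2 CPM in the female and 492 ± 98.5 CPM in the male line (1.17, adjusted p = 1.30e-06), and for both genes the 2 lines fell within the range of the other 8. Tagln overlaps Pcsk7 on the opposite strand, and whether the authors counted by strand is not given in the sources used here. The differences of Acta2, Cnn1, Myl9 and Lmod1 were also larger than the mean difference of the other 4 lots (edgeR interaction adjusted p between 2.33e-13 for Acta2 and 0.0411 for Cnn1), while that of Tagln was not shown to be (0.369). Within lot 6 alone the log2 fold change was larger than in lot 7 for Cnn1 (5.34), Lmod1 (4.92), Myl9 (3.88) and Tagln (2.32), and smaller for Acta2 (1.61).

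The markers of pericytes and smooth muscle share genes with the contractile list. The 11 markers added up to 7530 to 8370 CPM in the female libraries, against 1170 to 1610 CPM in the male libraries, with 1490 to 17500 CPM in the other lines, and nearly all of the sum was Acta2. All 3 markers tested, Acta2, Cnn1 and Pdgfrb, were higher in the female line. Acta2 and Cnn1 are the contractile genes given above, so they are not a separate observation. Rgs5, Abcc9, Kcnj8, Notch3 and Anpep, which define pericytes, had 0 counts in every lot 7 library. Myh11 (smooth muscle myosin heavy chain) and Des (desmin) were close to absent too. Summed over the libraries of a line, Myh11 had 1 count (female) and 2 counts (male). Des had 0 counts (female) and 2 counts (male). In bulk RNA, fewer cells of a type and less RNA per cell cannot be told apart.

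Contractile genes are known targets of serum response factor, which binds the CArG box. The RefSeq promoters of 2 members that were higher in the female line (250 bases before to 50 after the start, GRCm38.p6) show where such boxes lie, in capitals. The strict form searched was CC, then 6 bases each A or T, then GG. The Myl9 promoter (chr2:156775214-156775513, plus strand) had 1 strict match, which begins 161 bases before the start. The Acta2 promoter (chr19:34255324-34255623, minus strand) had no strict match but 2 windows that are 1 base off it, which begin 84 and 34 bases before the start. The search that allows 1 base off was added after the strict one.

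Acta2 promoter: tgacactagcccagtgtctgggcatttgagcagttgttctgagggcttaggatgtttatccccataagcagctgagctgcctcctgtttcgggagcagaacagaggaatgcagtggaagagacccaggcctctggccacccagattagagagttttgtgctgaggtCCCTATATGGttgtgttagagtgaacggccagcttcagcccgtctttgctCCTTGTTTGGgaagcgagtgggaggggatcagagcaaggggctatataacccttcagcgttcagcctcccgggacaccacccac

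Myl9 promoter: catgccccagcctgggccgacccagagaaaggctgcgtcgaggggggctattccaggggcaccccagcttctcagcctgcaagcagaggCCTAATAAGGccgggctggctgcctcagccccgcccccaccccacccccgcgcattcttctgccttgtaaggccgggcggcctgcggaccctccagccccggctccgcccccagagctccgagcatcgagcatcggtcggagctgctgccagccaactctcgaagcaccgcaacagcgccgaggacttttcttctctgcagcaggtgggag

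Searched on both strands, the strict box was present in 4 of the 21 list members with a promoter in the table, in 1 of the 6 called ones, and in 1.63% of all 32851 promoters. With up to 1 base off, it was present in 9 of the 21 members and in 21.1% of all promoters.

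**Figure D2:**
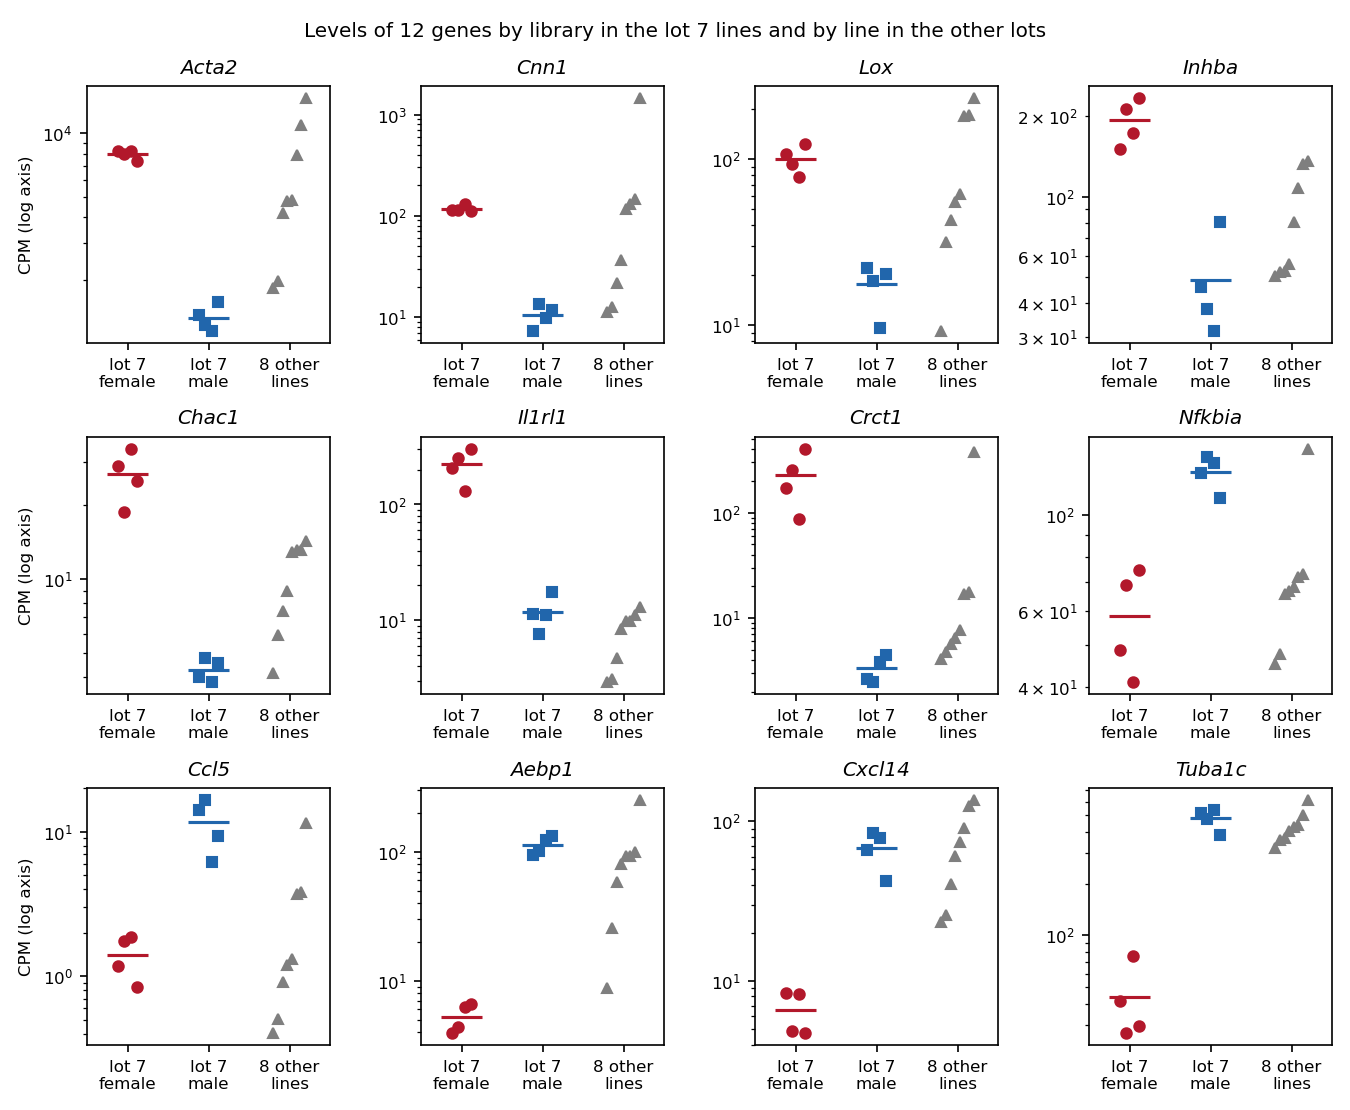
CPM on log axes of 12 genes in each lot 7 female library (red circles), each lot 7 male library (blue squares) and as the mean of each of the 8 other lines (grey triangles, sorted), with horizontal bars at the mean of a lot 7 line. The male line means of Acta2 and Cnn1 lie below every other line, though for Cnn1 the lot 8 lines are close. Il1rl1 in the female line lies above and Tuba1c below every other line.

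Fibrillar collagens and the enzymes that fold and crosslink them were more often higher than lower in the female line. Of 23 genes, all tested, 10 were higher and 1 was lower, with a median log2 fold change of 0.415, and 0 or 1 were lower when any 1 library was left out. The median of the list relative to the mean of the 8 other lines was -0.06 in the female line, and -0.63 in the male line, which lay below all of them (-0.59 to 0.69). Lox (lysyl oxidase, which crosslinks collagen, chromosome 18) had 108, 93.2, 78.2 and 123 CPM in female libraries, against 22, 18.5, 9.68 and 20.5 CPM in male libraries. Its log2 fold change was 2.51 ± 0.24 (edgeR adjusted p = 5.50e-10), with no overlap between the groups. Col5a1 (a chain of type V collagen, which limits fibril width) had 54.7, 54.7, 72.6 and 80.5 CPM in female libraries, against 19.1, 11.4, 10.6 and 19.4 CPM in male libraries (2.11 ± 0.22, adjusted p = 4.66e-09). Sparc (a collagen-binding matrix protein) averaged 1626 ± 115 CPM in the female and 1015 ± 69.4 CPM in the male line (0.68, adjusted p = 3.42e-05). Serpinh1 (the collagen chaperone HSP47) averaged 546 ± 106 CPM in the female and 326 ± 52.9 CPM in the male line (0.75, adjusted p = 8.82e-05). For Col5a1, Sparc and Serpinh1 the male line was the lowest of the 10 lines, while the female line was within the range of the other 8. The 15 markers of fibroblasts and meninges added up to 91.5 to 181 CPM in the female and 75.3 to 110 CPM in the male line, against 85.3 to 915 CPM in the other lines. Of the 11 markers tested, 2 were higher and 3 lower, and their median log2 fold change of -0.463 was opposite in sign to that of the collagen list. Relative to the 8 other lines their median was -0.83 in the female line and -0.38 in the male line, both below the range of those lines (lowest -0.29). Lum had 0 counts in both lines, and the part of these markers in the collagen result was not tested.

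Other matrix genes moved in both directions, and here the female line was often the one at the edge. Among 25 matricellular genes and matrix glycoproteins tested (2 others were too low), the female line was higher for 6 and lower for 5, with a median of 0.393. Aebp1 (a collagen-binding protein, chromosome 11) had 3.91, 4.37, 6.24 and 6.55 CPM in female libraries, against 94.8, 102, 123 and 132 CPM in male libraries (log2 fold change -4.40 ± 0.28, edgeR adjusted p = 1.30e-14). Spp1 (osteopontin, an integrin ligand) had 550, 594, 592 and 417 CPM in female libraries, against 1040, 1286, 2455 and 1070 CPM in male libraries (-1.44 ± 0.19, adjusted p = 9.55e-07). For both the female line was the lowest of the 10, below the range of the other 8 lines (8.75 to 253 CPM for Aebp1 and 835 to 2119 CPM for Spp1). Fbln5 (fibulin 5, an elastic fibre protein) averaged 107 ± 5.97 CPM in the female and 29.1 ± 1.73 CPM in the male line (1.88, adjusted p = 5.10e-10). Col12a1 (a fibril-associated collagen) averaged 65.7 ± 12.2 CPM in the female and 8.32 ± 2.46 CPM in the male line (2.97, adjusted p = 9.71e-08), and both genes lay within the range of the other lines.

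Among 15 basement membrane genes tested (1 other was too low), 2 were higher and 1 lower, with a median of 0.165, and 3 were lower without female replicate 3 or without female replicate 4. Col18a1 (whose product releases endostatin, chromosome 10) had 5.08, 2.62, 4.06 and 4.2 CPM in female libraries, against 50.5, 51.4, 40.4 and 51.5 CPM in male libraries (log2 fold change -3.60 ± 0.27, edgeR adjusted p = 1.08e-12). The female line was the lowest of the 10 lines, which otherwise ranged from 9.37 to 128 CPM. Col4a2 (a chain of type IV collagen) was higher in the female line, at 56.3 ± 4.96 CPM, against 25.1 ± 8.09 CPM in the male line, the lowest of all (1.17, adjusted p = 6.94e-05). Col18a1 overlaps Slc19a1, and Col4a2 overlaps Col4a1, both on the opposite strand. Matrix proteases and their inhibitors had 6 of 17 tested members higher and 1 lower (4 others were too low), with a median of 0.81. Timp3 (an inhibitor of metalloproteinases) averaged 68.7 ± 2.69 CPM in the female and 24.7 ± 5.74 CPM in the male line (1.48, adjusted p = 1.17e-06).

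Targets of YAP, adhesion receptors and TGF-beta pathway genes also differed. YAP, a transcriptional coactivator restrained by the Hippo pathway, acts through TEAD factors, and of its 25 listed targets, all tested, the female line was higher for 6 and lower for 3, with a median of 0.129. The number lower was 1 without female replicate 1, without male replicate 3, and without both replicate 4 libraries. F3 (tissue factor, which starts coagulation) had 255, 290, 244 and 236 CPM in female libraries, against 37.9, 60.4, 37.4 and 30 CPM in male libraries (log2 fold change 2.63 ± 0.18, edgeR adjusted p = 1.15e-13), and the female line was the highest of the 10. The lot 6 female line was close to it for F3, at 246 CPM. Ccn2 (connective tissue growth factor) had 1028, 999, 1063 and 1153 CPM in female libraries, against 257, 303, 314 and 444 CPM in male libraries (1.69 ± 0.15, adjusted p = 2.28e-10). Axl (a receptor tyrosine kinase also listed as a YAP target) went the other way, with 148 ± 12.7 CPM in the female and 257 ± 16.1 CPM in the male line (-0.80, adjusted p = 1.17e-06). The list medians of both lines (-0.10 for female, -0.14 for male) lay within the range of the other 8.

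Of 18 integrins and Cd44 tested (6 others were too low), 5 were higher and 1 lower, and the lower call was lost without several single libraries. Itgb5 averaged 87.2 ± 6.72 CPM in the female line, the highest of 10, and 36.8 ± 1.88 CPM in the male line (log2 fold change 1.24, edgeR adjusted p = 3.17e-06). Itga1, a collagen receptor subunit, averaged 9.72 ± 1.88 CPM in female libraries, against 0.292 ± 0.313 CPM in male libraries, close to the detection limit (4.95, adjusted p = 8.42e-08). Itga1 lies over Pelo on the same strand, which may share its reads. Itga11, another collagen receptor subunit, averaged 3.95 ± 1.69 CPM in the female and 0.157 ± 0.224 CPM in the male line (4.54, adjusted p = 6.64e-05). In the TGF-beta pathway, 5 of 21 tested genes were higher and 0 lower (median 0.355, and 3 higher without both replicate 4 libraries). Inhba (the activin A subunit) had 150, 212, 173 and 234 CPM in female libraries, against 46.0, 38.1, 31.4 and 80.4 CPM in male libraries (1.97 ± 0.23, adjusted p = 6.79e-08). For Inhba the female line was above and the male line below every other line (50.4 to 136 CPM), the male line by little at a mean of 49.0 CPM. Ltbp1, which stores latent TGF-beta in the matrix, averaged 230 ± 36.6 CPM in the female line, the highest of 10, and 130 ± 42.1 CPM in the male line (0.83, adjusted p = 7.77e-04).

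Of 13 mesenchymal transcription factors and cadherins tested (3 others were too low), 3 were higher and 3 lower. The number higher was 1 without female replicate 3, and the number lower was 1 without male replicate 1. Snai2 (the repressor Slug) averaged 33.4 ± 2.20 CPM in the female and 5.75 ± 1.22 CPM in the male line (log2 fold change 2.53, edgeR adjusted p = 6.27e-07). Cdh13 (T-cadherin) was the lowest of the 10 lines in the female line, at 35.1 ± 11.8 CPM, and the highest in the male line, at 106 ± 39.8 CPM (-1.59, adjusted p = 8.28e-05).

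**Figure D3:**
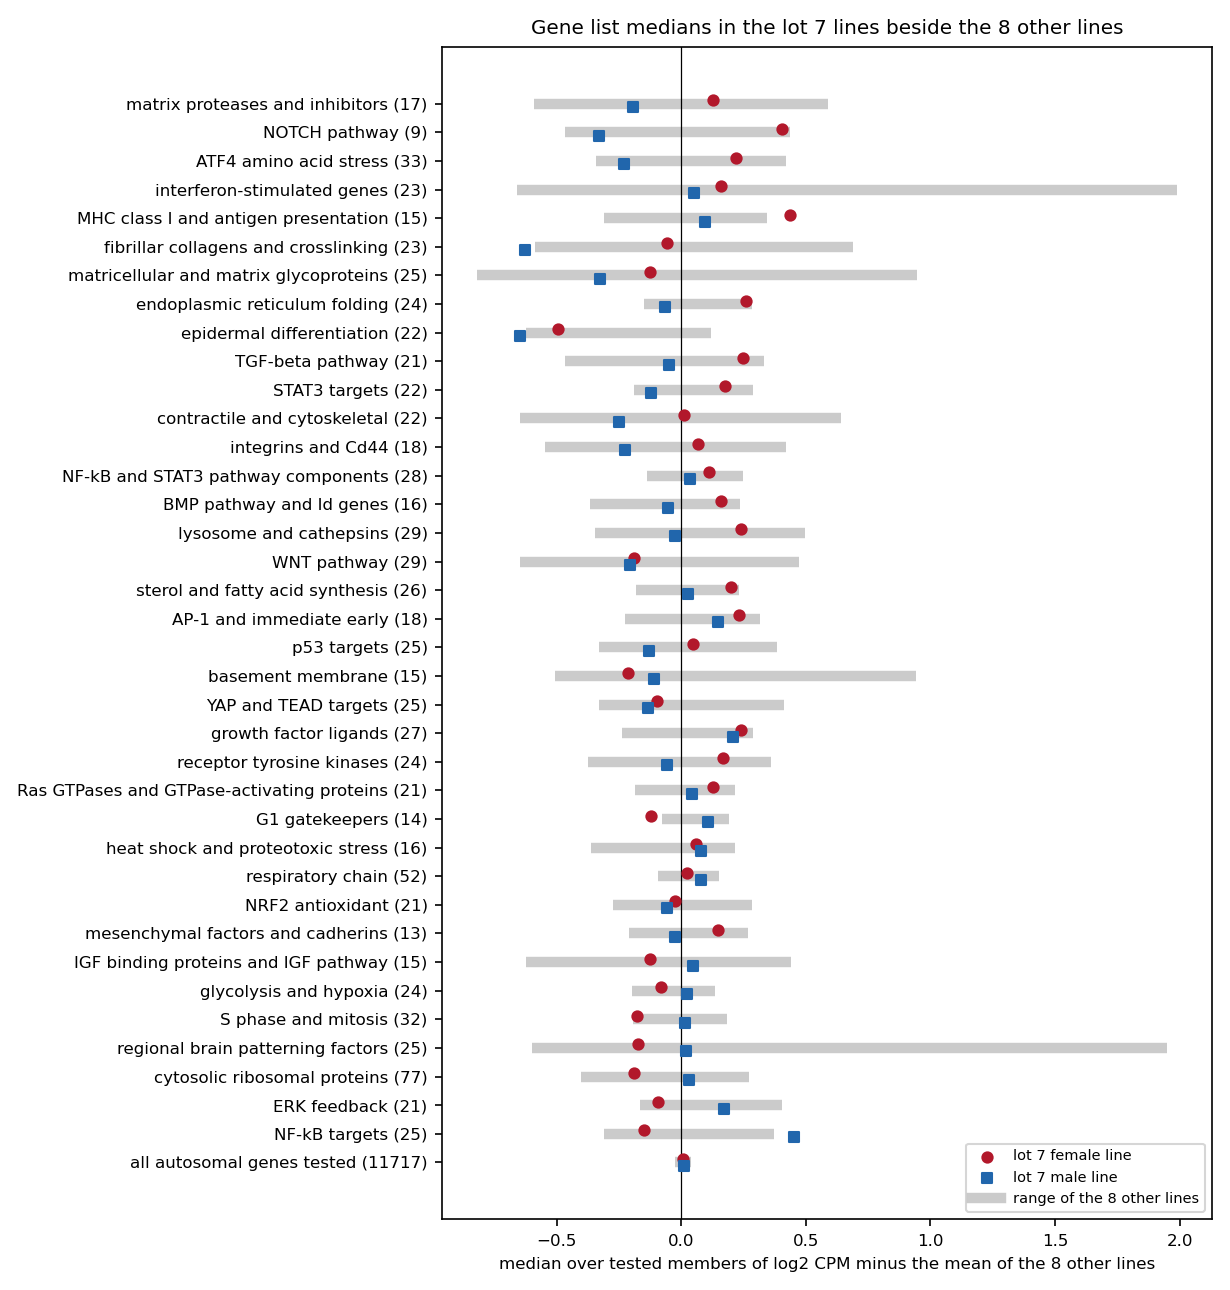
Median over the tested members of each list other than marker lists and HOX genes (number in brackets) of a line's log2 CPM minus the mean of the 8 other lines, for the lot 7 female line (red circles) and the lot 7 male line (blue squares), with the range of the 8 other lines as grey bars. The male line lay below the range for fibrillar collagens and epidermal differentiation and above it for NF-kB targets, and the female line lay above it for MHC class I genes and below it for G1 genes.

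Targets of NF-kB, the transcription factor family that drives inflammatory genes, were more often lower than higher in the female line. Of 25 tested (10 others were too low), 7 were lower and 2 higher, with a median log2 fold change of -0.622, and 5 or 6 were lower when any 1 library was left out. The number higher was 0 without female replicate 1, 2 or 3 or male replicate 1, and 1 without male replicate 2, 3 or 4. Relative to the 8 other lines the list median was -0.15 in the female line, within their range, and 0.45 in the male line, above it (-0.31 to 0.37). Nfkbia (the inhibitor IkB alpha, itself induced by NF-kB, chromosome 12) had 48.8, 69.1, 41.0 and 74.7 CPM in female libraries, against 125, 137, 133 and 110 CPM in male libraries. The groups did not overlap (log2 fold change -1.11 ± 0.15, edgeR adjusted p = 1.23e-06). Ccl5 (a chemokine for T cells) had 1.17, 1.75, 1.87 and 0.840 CPM in female libraries, against 14.2, 16.6, 6.19 and 9.27 CPM in male libraries (-3.01 ± 0.70, adjusted p = 0.00295). Ccl2 (a chemokine for monocytes) had 13.3, 6.12, 8.89 and 6.72 CPM in female libraries, against 28.6, 31.2, 31.7 and 12.3 CPM in male libraries (-1.57 ± 0.34, adjusted p = 0.00158). For Ccl5 the male line was the highest of the 10 at 11.56 CPM, but nearly level with the lot 6 female line at 11.48 CPM. For Nfkbia the lot 6 female line, at 142.8 CPM, was above the lot 7 male line at 126.2 CPM. For Ccl2 the lot 8 female line, at 29.85 CPM, was above the lot 7 male line at 25.97 CPM. In Ccl2, male replicate 4 also fell below female replicate 1. Vcam1 (an adhesion molecule) averaged 26.1 ± 8.34 CPM in the female and 54.7 ± 3.02 CPM in the male line (-1.06, adjusted p = 4.63e-05). The 13 markers of microglia and macrophages added up to 2.34 to 9.83 CPM in the female and 2.08 to 5.23 CPM in the male libraries, and 10 of them, Csf1r, Aif1 and Itgam among these, had 0 counts in both lines.

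Few genes of the pathway itself passed the test. Of 28 NF-kB and STAT3 pathway components, all tested, 1 was higher and 1 lower, and 1 or 2 were higher and 0 or 1 lower when any 1 library was left out. Rela (the p65 subunit) averaged 52.9 ± 11.5 CPM in the female and 44.4 ± 3.69 CPM in the male line (log2 fold change 0.25, edgeR adjusted p = 0.427). Nfkb1 (the p105 and p50 subunit) averaged 5.08 ± 1.31 CPM in the female and 5.76 ± 0.290 CPM in the male line (-0.18, adjusted p = 0.808). Stat3 averaged 9.87 ± 2.31 CPM in the female and 8.32 ± 1.77 CPM in the male line (0.25, adjusted p = 0.709), and for these 3 genes the libraries of the lines overlapped. Il6st (gp130, the shared receptor chain of the interleukin 6 family) had 48.5, 51.1, 53.5 and 64.5 CPM in female libraries, against 22.3, 24.1, 14.3 and 14.4 CPM in male libraries (1.53 ± 0.27, adjusted p = 1.03e-04).

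The Nfkbia promoter is shown because its gene is a classical NF-kB target that was lower in the female line, with the kappa-B match in capitals (RefSeq, GRCm38.p6, chr12:55492598-55492897, minus strand). The match begins 29 bases before the start.

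Nfkbia promoter: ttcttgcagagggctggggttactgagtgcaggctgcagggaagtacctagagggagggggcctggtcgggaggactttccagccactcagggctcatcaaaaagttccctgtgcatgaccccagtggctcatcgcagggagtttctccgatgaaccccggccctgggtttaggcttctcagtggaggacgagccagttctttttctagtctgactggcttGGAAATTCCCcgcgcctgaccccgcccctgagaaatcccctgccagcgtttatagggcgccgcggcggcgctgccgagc

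On either strand, a kappa-B match was present in 15 of the 25 listed NF-kB targets that have a promoter in the table, in 4 of the 5 called ones, and in 6.93% of all promoters.

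STAT3 targets had 7 of 22 tested members higher and 2 lower in the female line (median 0.297; 5 others were too low), and when any 1 library was left out the count higher was 4 to 6 (4 without female replicate 2) and the count lower 1 or 2. Ifitm3 (an antiviral membrane protein, also interferon-stimulated) had 490, 415, 437 and 230 CPM in female libraries, against 42.8, 53.2, 76.0 and 47.8 CPM in male libraries (log2 fold change 2.84 ± 0.23, edgeR adjusted p = 1.31e-11). Cebpd (a transcription factor of the acute phase response) averaged 19.6 ± 3.22 CPM in the female and 6.46 ± 1.38 CPM in the male line (1.60, adjusted p = 3.56e-05), and Spidr overlaps it on the opposite strand. Ccnd1 (cyclin D1) was lower in the female line, at 164 ± 31.5 CPM against 365 ± 38.1 CPM in the male line (-1.16, adjusted p = 4.03e-07), and the female line was the lowest of the 10. LTO1 overlaps Ccnd1 on the opposite strand.

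Interferon-stimulated genes as a list showed 3 of 23 tested higher and 1 lower (9 others were too low; median 0.533). Bst2 (tetherin) averaged 2.75 ± 1.17 CPM in the female and 10.4 ± 3.22 CPM in the male line (log2 fold change -1.93, edgeR adjusted p = 3.44e-04), while Ifi35 averaged 40.0 ± 10.6 CPM in the female line, the highest of 10, and 15.4 ± 4.09 CPM in the male line (1.37, adjusted p = 0.00302). Of 15 genes of MHC class I antigen presentation tested, 4 were higher and 1 lower (median 0.496, and 0 to 2 lower when any 1 library was left out), and the median of the female line, 0.44 over the mean of the other 8, was above their range (-0.31 to 0.34), against 0.09 in the male line. H2-T23 (the nonclassical molecule Qa-1, chromosome 17) averaged 33.3 ± 4.81 CPM in the female line, the highest of 10, and 7.70 ± 1.78 CPM in the male line (2.11, adjusted p = 4.09e-06). Reads of H2 genes can be split among near-identical copies, which makes this value uncertain.

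Genes of the amino acid stress response were more often higher than lower in the female line. ATF4 is a transcription factor made when translation initiation is curbed, and it switches on amino acid synthesis, transport and tRNA charging. Of 33 listed genes tested (2 others were too low), 12 were higher and 1 lower, with a median log2 fold change of 0.537, and the number lower was 0 without female replicate 2 or 3 or male replicate 1. Relative to the 8 other lines the list median was 0.22 in the female line, against -0.23 in the male line, both within their range (-0.34 to 0.42). Chac1 (a glutathione-degrading enzyme, chromosome 2) had 28.9, 18.9, 34 and 25 CPM in female libraries, against 4.00, 4.77, 3.81 and 4.57 CPM in male libraries (2.63 ± 0.37, edgeR adjusted p = 2.07e-06), and the female line was the highest of the 10. Asns (asparagine synthetase) had 130, 110, 163 and 142 CPM in female libraries, against 67.6, 83.1, 77.4 and 81.2 CPM in male libraries (0.82 ± 0.12, adjusted p = 9.65e-06). Sars (seryl-tRNA synthetase) averaged 286 ± 38.5 CPM in the female and 169 ± 10.8 CPM in the male line (0.76, adjusted p = 5.03e-06). Atf4 itself averaged 225 ± 3.23 CPM in the female and 138 ± 16.4 CPM in the male line (0.70, adjusted p = 5.79e-04). The male line was the lowest of the 10 for Asns, Sars and Atf4, though for Atf4 the lot 8 female line was close to it, at 140 CPM.

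ATF4 binds the sequence TGATGNAA together with a C/EBP partner. The RefSeq promoters of Chac1 (chr2:119350992-119351291, plus strand) and Asns (chr6:7693160-7693459, minus strand), both GRCm38.p6, each had 1 match, in capitals, which begins 193 bases before the start on the reverse strand in Chac1 and 23 bases before it in Asns.

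Chac1 promoter: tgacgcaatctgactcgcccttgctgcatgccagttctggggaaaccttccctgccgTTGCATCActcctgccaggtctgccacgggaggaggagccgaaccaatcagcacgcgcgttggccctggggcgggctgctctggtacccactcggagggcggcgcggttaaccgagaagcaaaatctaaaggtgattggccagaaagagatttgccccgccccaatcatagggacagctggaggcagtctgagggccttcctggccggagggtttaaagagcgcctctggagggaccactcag

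Asns promoter: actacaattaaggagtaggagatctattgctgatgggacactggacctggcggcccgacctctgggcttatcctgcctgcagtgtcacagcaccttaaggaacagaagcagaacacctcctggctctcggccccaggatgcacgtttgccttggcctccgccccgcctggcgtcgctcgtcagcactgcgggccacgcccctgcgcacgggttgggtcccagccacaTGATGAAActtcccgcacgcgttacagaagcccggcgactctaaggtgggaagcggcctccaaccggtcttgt

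On either strand, TGATGNAA was present in 11 of the 31 list members with a promoter in the table, in 7 of the 13 called ones, and in 3.97% of all promoters. Among 24 genes of protein folding in the endoplasmic reticulum, all tested, 5 were higher in the female line and 0 lower (median 0.362), and 8 were higher with library totals in place of TMM scaling. Herpud1 (which acts in degradation of misfolded proteins) averaged 91.4 ± 19.5 CPM in the female and 43.2 ± 7.05 CPM in the male line (log2 fold change 1.08, edgeR adjusted p = 1.40e-05). Its male mean was the lowest of 10, close to the lot 8 female line at 43.7 CPM. P4hb (protein disulfide isomerase, also a subunit of the collagen prolyl hydroxylase) averaged 794 ± 75.0 CPM in the female line, the highest of 10, and 587 ± 40.9 CPM in the male line (0.44, adjusted p = 4.17e-04).

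Among cytosolic ribosomal protein genes, 23 of 77 tested were lower in the female line and 0 higher (1 other was too low), with a median log2 fold change of -0.195. The number lower was 13 without male replicate 1, up to 26 without another single library, and 16 without both replicate 4 libraries. Counts of these genes made up 20.5 to 21.7% of the female and 22.4 to 24.4% of the male libraries, with 17.0 to 26.4% in the other lines. Rpsa (chromosome 9) had 3167, 3001, 2744 and 2968 CPM in female libraries, against 4836, 4263, 4155 and 4551 CPM in male libraries (-0.58 ± 0.08, edgeR adjusted p = 1.38e-06). Rpl4 averaged 2024 ± 78.5 CPM in female libraries, against 2887 ± 111 CPM in male libraries (-0.51, adjusted p = 3.52e-05). Rplp1 averaged 5999 ± 377 CPM in female libraries, against 8488 ± 663 CPM in male libraries (-0.50, adjusted p = 5.59e-05), and Rpl34 (chromosome 3) averaged 846 ± 108 CPM in the female and 1222 ± 78.7 CPM in the male line (-0.53, adjusted p = 6.71e-05). Rpsa, Rpl4 and Rplp1 all lie on chromosome 9, and the grouping by chromosome was made after these values were seen. On chromosomes 7, 9 and 10 together, 16 of 25 tested ribosomal protein genes were lower (median -0.339), and on the other autosomes 7 of 52 (median -0.113). Many of these genes have processed pseudogenes that can share their reads. Of 52 respiratory chain genes, 2 were higher and 6 lower (median -0.0596). Library totals in place of TMM scaling gave 6 higher and 6 lower. The number higher was 0 without male replicate 2, without male replicate 4, and without both replicate 4 libraries, and 1 without female replicate 1, 3 or 4, and the number lower was 3 without female replicate 3 or male replicate 1.

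Among cell cycle genes, few of S phase and mitosis passed the test, while a larger share of the G1 regulators did. Of 32 genes of S phase and mitosis, 1 was lower and 0 higher, with a median log2 fold change of -0.156 and 7 of the 32 positive. The number lower was 3 without female replicate 1, 2 without female replicate 2 or male replicate 1, 2 or 4, 5 with DESeq2 and 4 with limma voom. Of 14 G1 regulators tested, 3 were higher and 2 lower, and the list median of the female line, -0.12, was below the range of the 8 other lines (-0.08 to 0.19), against 0.11 in the male line. Cdkn1a (p21, the cyclin-dependent kinase inhibitor induced by p53, chromosome 17) had 53.7, 64.5, 18.3 and 87.7 CPM in female libraries, against 4.92, 8.38, 12.8 and 6.37 CPM in male libraries (log2 fold change 2.79 ± 0.40, edgeR adjusted p = 2.96e-06). Female replicate 3 was the lowest of the female libraries and still above all male ones. Ccnd2 (cyclin D2) averaged 250 ± 32.2 CPM in the female and 155 ± 11.3 CPM in the male line (0.69, adjusted p = 0.00223). Cdk4 averaged 210 ± 10.6 CPM in the female and 300 ± 27.6 CPM in the male line (-0.52, adjusted p = 4.57e-04), and Tspan31 overlaps it on the opposite strand. Among p53 targets 4 of 25 tested were higher and 2 lower (median 0.200, with 2 higher without female replicate 4 and 1 or 2 lower when any 1 library was left out). Trp53, whose 3' counts do not separate the endogenous gene from a mouse transgene, had 239, 230, 201 and 158 CPM in female libraries, against 425, 462, 345 and 332 CPM in male libraries (-0.92 ± 0.12, adjusted p = 7.18e-07). The male line had the highest Trp53 of the 10 lines, and the female line was within the range of the other 8 (180 to 304 CPM).

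Growth factor genes differed in both directions. Among 21 feedback genes of ERK signalling, the kinase cascade below Ras, 1 was higher and 4 lower (median -0.500). Dusp1 (a phosphatase that inactivates MAP kinases) had 111, 119, 106 and 117 CPM in female libraries, the highest of the 10 lines, against 26.9, 27.7, 35.5 and 33.5 CPM in male libraries (log2 fold change 1.87 ± 0.18, edgeR adjusted p = 7.08e-10). Etv4 (an ETS factor induced by ERK) averaged 8.98 ± 2.15 CPM in the female and 22.3 ± 3.45 CPM in the male line (-1.32, adjusted p = 1.39e-04). Dusp1 overlaps Ergic1 on the opposite strand. Of 27 growth factor ligands tested (6 others were too low), 7 were higher and 6 lower, and 3 lower without both replicate 4 libraries. Igf1 averaged 43.2 ± 20 CPM in the female and 5.02 ± 2.52 CPM in the male line (3.09, adjusted p = 6.93e-07), and Ereg (epiregulin, an EGF receptor ligand) averaged 2.67 ± 2.7 CPM in the female line, the lowest of 10, and 13.7 ± 3.29 CPM in the male line (-2.32, adjusted p = 1.71e-04).

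In the IGF group, 2 of 15 tested genes were higher and 4 lower. Igfbp2 (which binds IGFs outside the cell) averaged 105 ± 23 CPM in the female and 40.2 ± 16.3 CPM in the male line (log2 fold change 1.38, edgeR adjusted p = 1.43e-04). The oncofetal RNA-binding proteins went the other way: Igf2bp1 averaged 5.18 ± 0.528 CPM in the female and 23.4 ± 4.57 CPM in the male line, the highest of 10 (-2.17, adjusted p = 9.93e-05). Igf2bp3 averaged 0.485 ± 0.227 CPM in the female line, at the detection limit, and 10.4 ± 1.69 CPM in the male line (-4.38, adjusted p = 2.11e-07), and Malsu1 overlaps it on the opposite strand. Both genes were also lower in the female line of lots 6, 8 and 11. The log2 fold changes there were -4.25, -5.75 and -3.84 for Igf2bp3. For Igf2bp1 they were -1.285, -2.18 and -1.83. Lot 12 went the other way, at 2.78 for Igf2bp3 and 0.905 for Igf2bp1. Neither difference was shown to depart from the mean of the other lots (edgeR interaction adjusted p = 0.128 and 0.133). Of 9 NOTCH pathway genes tested (12 others were too low), 3 were higher and 0 lower, and 1 higher without male replicate 1. Hey1 (a repressor induced by NOTCH) had 15.4, 10.3, 12.2 and 21 CPM in female libraries, against 2.92, 1.59, 2.85 and 4.43 CPM in male libraries (2.31 ± 0.40, adjusted p = 7.83e-05). For Hey1 the female line was the highest and the male line the lowest of the 10, the latter close to the lot 6 male line at 3.18 CPM.

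Genes of positional and lineage identity were few and low. Of 39 HOX genes, 1 passed the filter on low counts: Hoxa7 had 0, 0.175, 0 and 0 CPM in female libraries, against 5.85, 17.3, 11.1 and 8.03 CPM in male libraries, and 0 to 0.541 CPM in the other lines. With 1 count in the female line and 286 in the male line, the male level was 246 times the female one, with a 95% counting interval of 43.8 to 9759 (edgeR adjusted p = 6.17e-05). Hoxa7 passed the filter only through the male line, so it had to differ and this p is no support. Its difference was not shown to depart from that in the other lots. Of 25 regional patterning factors tested (12 others were too low), the female line was higher for 5 and lower for 2, and for 1 and 0 without both replicate 4 libraries. The number higher was 3 without female replicate 4 or male replicate 1, and the number lower was 4 without female replicate 3. Zic1 (a factor of dorsal neural tissue) averaged 3.01 ± 1.26 CPM in the female and 0.140 ± 0.196 CPM in the male line (log2 fold change 4.18, adjusted p = 0.0016), and Zic4 overlaps it on the opposite strand. Dlx5 (a forebrain and skeletal homeobox factor) had 29 counts in the female line and 0 in the male line, at least 11.2-fold higher when set against 3 counts over the male line. Its adjusted p was 0.0113, and 0.0543 without both replicate 4 libraries (0.00241 to 0.0744 over its alternatives).

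Of 9 astrocyte markers tested (6 others were too low), 1 was higher and 1 lower, and the 15 markers added up to 158 to 176 CPM in the female libraries, against 207 to 255 CPM in the male libraries, with 159 to 813 CPM in the other lines. Gja1 (connexin 43, the astrocyte gap junction protein) had 86.0, 89.7, 33.7 and 124 CPM in female libraries, against 147, 127, 139 and 188 CPM in male libraries (log2 fold change -0.85 ± 0.26, edgeR adjusted p = 0.0262). The call was lost without female replicate 1 (0.0512), without female replicate 3 (0.122) and without male replicate 4 (0.0885), and its adjusted p ranged from 2.29e-08 to 1 over all alternatives. Apoe (the lipid carrier of astrocytes) had 14.8, 10.5, 58.2 and 5.88 CPM in female libraries, against 5.85, 4.04, 5.55 and 5.95 CPM in male libraries. Its higher mean in the female line rested on replicate 3: the log2 fold change was 2.08 (adjusted p = 0.0345) with it and 0.95 (0.457) without it, and the adjusted p ranged from 2.67e-27 to 0.496 over all alternatives. Neuronal markers added up to 7.89 to 11.5 CPM in the female and 17.9 to 28.3 CPM in the male libraries. The other lines had 11.6 to 108 CPM. The gap came mainly from Tubb3, and Map2 had the higher mean in the female line. Of the 4 neuronal markers tested, 1 (Tubb3) was lower and 0 higher. Rbfox3, Snap25 and Syt1 were at 0 in both lines.

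Of 22 epidermal differentiation genes tested (12 others were too low), 5 were higher and 2 lower (median 0.361), and 0 were lower without male replicate 1 and 1 without female replicate 2 or 4 or male replicate 3. Relative to the 8 other lines the list median was -0.50 in the female line, within their range, and -0.65 in the male line, just below it (-0.62 to 0.12). Crct1, of this list and on chromosome 3, was among the genes with the largest differences at a mean of 3 or more in log2 CPM, together with several outside the lists. It had 172, 255, 87.5 and 405 CPM in female libraries, against 2.62, 2.46, 3.81 and 4.43 CPM in male libraries, the lowest of the 10 lines (log2 fold change 6.10 ± 0.46, edgeR adjusted p = 9.31e-13). Il1rl1 (ST2, the receptor of interleukin 33, chromosome 1) had 204.7, 251.8, 130.3 and 303.2 CPM in female libraries, against 11.4, 7.66, 11.1 and 17.4 CPM in male libraries (4.22 ± 0.34, adjusted p = 5.91e-12). The other 8 lines had 2.92 to 13 CPM of Il1rl1, so the female line alone was high. Mgll (monoacylglycerol lipase) averaged 36.3 ± 9.64 CPM in the female and 1.85 ± 1.30 CPM in the male line, the lowest of 10 (4.26, adjusted p = 6.79e-08). Serpinf1 (PEDF, a secreted antiangiogenic factor) averaged 332 ± 57.9 CPM in the female and 31.1 ± 9.15 CPM in the male line (3.42, adjusted p = 5.57e-14). Alkal1 (a ligand of the receptor ALK) averaged 30.3 ± 4.59 CPM in the female and 2.92 ± 0.994 CPM in the male line (3.36, adjusted p = 6.75e-10). Only the lot 6 female line was higher than the lot 7 female line for Crct1 (377.5 CPM), Serpinf1 and Alkal1. Mgll was also highest in the lot 6 female line, at 144.8 CPM. Within lot 6 the log2 fold change was larger than in lot 7 for Crct1 (6.53), Mgll (4.945) and Alkal1 (5.26). It was smaller there for Serpinf1 (2.96). Nrep averaged 90.6 ± 30.1 CPM in the female and 6.43 ± 2.36 CPM in the male line (3.81, adjusted p = 9.78e-08). Rc3h2, an RNA-binding ubiquitin ligase, had 7.42, 6.82, 346 and 6.55 CPM in female libraries, against 2.62, 5.92, 4.92 and 4.71 CPM in male libraries. Its fold change rested on female replicate 3, at 4.33 (adjusted p = 1.35e-04) with it and 0.60 (0.437) without it, and the adjusted p ranged from 5.20e-44 to 0.437 over all alternatives.

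At the other end, Tuba1c (an alpha-tubulin, chromosome 15) had 41.8, 26.9, 75.8 and 29.9 CPM in female libraries, against 517, 478, 540 and 384 CPM in male libraries (log2 fold change -3.45 ± 0.21, edgeR adjusted p = 4.77e-15). The other 8 lines had 323 to 617 CPM, so the female line alone was low. Alpha-tubulin genes are near copies of each other, so reads shared among them make the value uncertain. Trim47 (a ubiquitin ligase) averaged 2.03 ± 0.675 CPM in the female line, the lowest of 10, and 34.5 ± 2.24 CPM in the male line, the highest (-4.06, adjusted p = 1.15e-13), and Trim65 overlaps it on the same strand. The lot 6 female line was close to the lot 7 female line for Trim47, at 2.21 CPM. Cxcl14 (a chemokine) had 8.4, 4.9, 8.27 and 4.70 CPM in female libraries, below every other line, against 66.0, 84.2, 79.0 and 42.2 CPM in male libraries (-3.37 ± 0.36, adjusted p = 8.21e-09). Eno3 (muscle enolase) was lowest in the female line at 8.27 ± 4.39 CPM, against 63.5 ± 10.4 CPM in the male line (-2.94, adjusted p = 2.77e-08). Tinagl1 (a basement membrane protein) averaged 4.54 ± 0.794 CPM in the female and 46.9 ± 12.0 CPM in the male line (-3.37, adjusted p = 1.15e-13). Both lines lay within the range of the other 8 for Tinagl1. Plvap (a protein of endothelial fenestrae) averaged 2.36 ± 0.954 CPM in the female and 35.6 ± 13.5 CPM in the male line (-3.89, adjusted p = 2.44e-07), and Gtpbp3 overlaps it on the opposite strand. Rgs2 (an inhibitor of G protein signalling) averaged 6.50 ± 1.87 CPM in the female and 75.3 ± 10.1 CPM in the male line (-3.53, adjusted p = 2.22e-09). Plvap and Rgs2 were each highest in the male line among the 10. Of the 11 endothelial markers, Pecam1, Tek, Cldn5, Emcn and Vwf had 0 counts in both lot 7 lines. Flt1, the highest of them, averaged 16.4 CPM (female) and 16.7 CPM (male). All 11 together gave 11.9 to 20.6 CPM per female library and 13.7 to 22.8 CPM per male library. The other lines had 1.77 to 18.2 CPM. The 2 markers tested had medians of 0.49 (female) and 0.74 (male) relative to the 8 other lines, above their range (-0.89 to 0.41). Tmem176a, a membrane protein, averaged 7.66 ± 7.37 CPM in the female and 59.4 ± 15.5 CPM in the male line (-2.94, adjusted p = 5.39e-06), and Tmem176b overlaps it on the opposite strand.

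The medians of some chromosomes stood apart. Over the chromosome 9 genes averaging 4 or more in log2 CPM (279 genes), the median log2 fold change was -0.28, and 94 of its 694 tested genes were lower in the female line and 17 higher. Relative to the mean of the 8 other lines the chromosome 9 median was -0.20 in the female line, below their range of -0.05 to 0.07, and 0.06 in the male line, within it. Chromosome 17 ran the other way, with a median of 0.21, and 73 of 590 tested genes were higher and 17 lower. Its median was 0.08 in the female line, above the range of the 8 other lines (-0.07 to 0.06), and -0.11 in the male line, below it. By library it ran from 0.0107 to 0.15 in the female and from -0.187 to -0.047 in the male line, so both reached into that range. The chromosome 9 median ran from -0.265 to -0.177 by female library, all below the range. Chromosome 10 had a median of -0.19, with 63 of 568 genes lower and 12 higher, and here the female line (-0.21) and the male line (-0.01) were both within the range of the other lines (-0.27 to 0.40). On chromosome 5 the male line, at 0.15, was above the range of the other lines (-0.07 to 0.09), and the female line at 0.05 was within it. On chromosome 18 the female line, at -0.09, was just below the range of the other lines (-0.07 to 0.10), and the male line at -0.04 was within it. By library the male line ran from 0.121 to 0.178 on chromosome 5, all above the range. The female line ran from -0.113 to 0.0106 on chromosome 18, reaching into it. Tagln, Cnn1, Col12a1 and Itga11 lie on chromosome 9 and were higher in the female line, against the median of their chromosome, while H2-T23, Cdkn1a, Dusp1 and Ltbp1 lie on chromosome 17. DNA copy number was not measured, and its part in these medians was not tested.

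**Figure D4:**
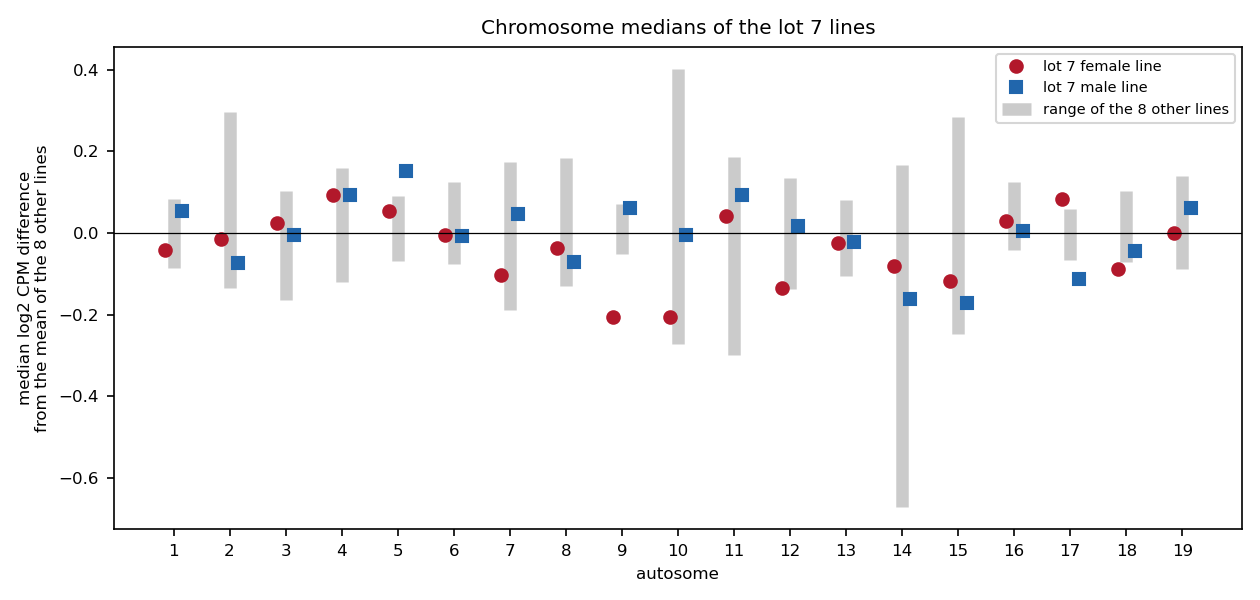
Median per autosome (horizontal axis) of log2 CPM minus the mean of the 8 other lines, over genes averaging 4 or more in log2 CPM, for the lot 7 female line (red circles) and the lot 7 male line (blue squares), with the range of the 8 other lines as grey bars. The female line lay below the range on chromosomes 9 and 18 and above it on chromosome 17, and the male line lay above it on chromosome 5 and below it on chromosome 17. On chromosomes 17 and 18 these placements hold for the line values and not for every library, which are not drawn.

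Both lot 7 lines were then set against the same 8 lines, which the comparisons share. Over the 11717 autosomal genes, the median absolute log2 difference from the mean of the 8 lines was 0.257 in the female line and 0.221 in the male line. For each other line against the 8 lines outside its own lot, the same measure ranged from 0.220 in the lot 11 male line to 0.392 in the lot 6 female line. By library, the distance was 0.351 to 0.375 in the female line and 0.314 to 0.328 in the male line, with no overlap. The female libraries were also the shallower ones, and with all libraries thinned to the depth of the shallowest, the female line stood at 0.256, against 0.218 for the male line. The female line mean was outside the range of the 8 other line means for 2058 genes (17.6%), 1125 above and 933 below, and the male line mean for 1723 genes (14.7%), 887 above and 836 below. For the other lines this share, against the lines outside their lot, was 13.7 to 40.3%.

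**Figure D5:**
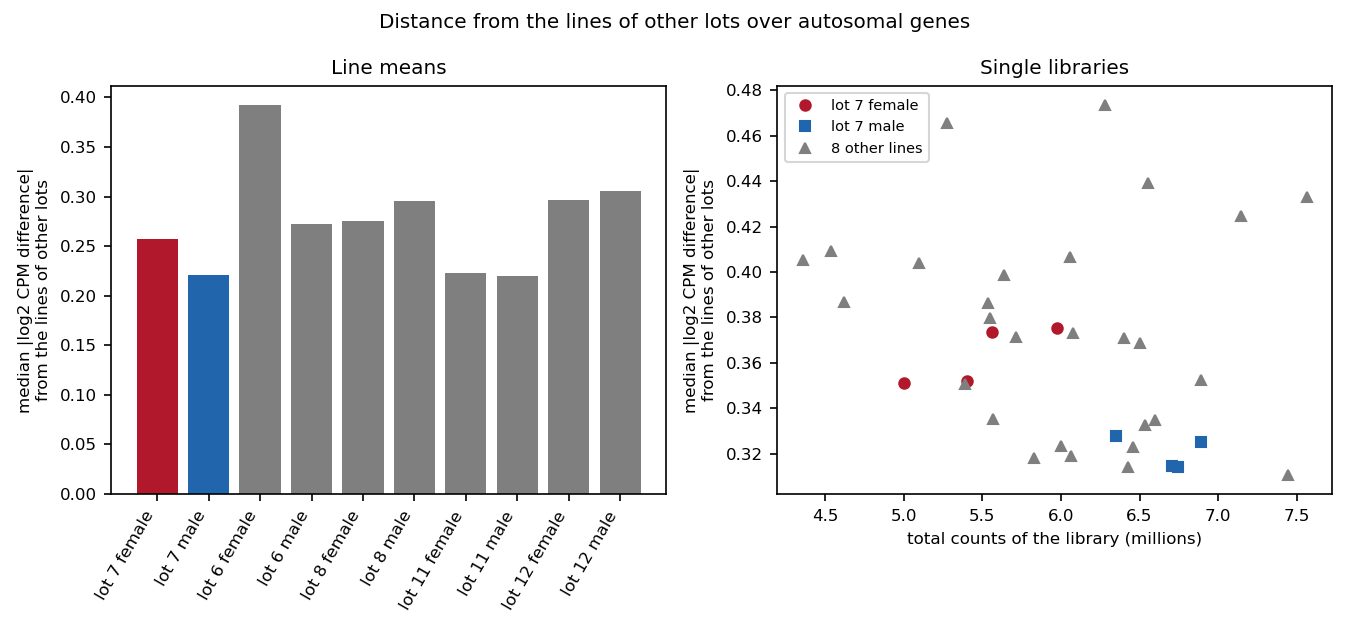
Left, median absolute log2 CPM difference of each line mean from the mean of the lines of other lots over 11717 autosomal genes, as bars. Right, the same for each library against its total counts, with the lot 7 female libraries (red circles, 0.351 to 0.375) above the lot 7 male libraries (blue squares, 0.314 to 0.328).

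Among the 1266 genes that differed between the lot 7 lines, the female line was outside the range of the other 8 lines for 406 genes (32.1%) and the male line for 309 (24.4%). The female line alone was outside for 324, the male line alone for 227, both on opposite sides for 73 and on the same side for 9, and neither for 633. Over all 11717 autosomal genes tested these counts were 1534, 1199, 127, 397 and 8460. The female line was farther from the mean of the 8 lines for 775 of these genes (61.2%), against 54.8% of all autosomal genes tested. Their median absolute difference was 0.475 in the female line, against 0.362 in the male line. Of the 630 genes higher in the female line, the female line was above the other lines for 183, and the male line below them for 153. Of the 636 lower ones, the female line was below for 221, and the male line above for 149.

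A test on sums per line, in which the lone lot 7 line is assumed to vary like the other 8, called few genes. The female line had 3 autosomal genes above the 8 other lines and 1 below, of 11556 tested (0.0346%). Of all 12010 genes tested, sex chromosomes included, 401 had an unadjusted p under 0.05 in the female line. The male line had 3 above and 0 below (0.026%), while DESeq2 called 10 below and limma voom 0. Of all 12010 genes, 252 had an unadjusted p under 0.05 in the male line. Both shares are smaller than the 0.05 that this threshold alone lets through. Il1rl1 was above in the female line by 4.81 ± 0.51 on the log2 scale (edgeR adjusted p = 0.00785), and its male value was 0.61 ± 0.66 (adjusted p = 1). Tuba1c was below in the female line by a log2 difference of -3.27 ± 0.39 (adjusted p = 0.0174), with 0.16 ± 0.29 in the male line (adjusted p = 1). Without the lot 8 male, lot 12 female or lot 12 male line the adjusted p for Tuba1c was 0.0519, 0.0538 and 0.0538 (1.58e-19 to 0.0538 over all alternatives). The departure of Rc3h2 in the female line (4.17, adjusted p = 2.83e-04) was 0.31 (0.998) without female replicate 3 (6.01e-20 to 0.998 over all alternatives). The remaining calls, named after their values were seen, were processed pseudogenes, whose reads may belong to parent genes, and 1 X-linked gene. Gm8210 had 14.8 ± 2.18 CPM in the female and 24.5 ± 1.95 CPM in the male line, against 0.926 to 1.68 CPM in the other 8, and it was called in both. Gm13736 had 0.733 ± 0.214 CPM in the female and 14.7 ± 2.35 CPM in the male line, and Gm14036 had 3.90 ± 1.38 CPM in the female and 9.10 ± 2.04 CPM in the male line, both called in the male line only. Tktl1 (a transketolase-like gene on the X chromosome) had 2.69 ± 0.349 CPM in the female and 627 ± 55.6 CPM in the male line, against 2.27 to 3.45 CPM in the other 8 lines, a difference of 7.75 ± 0.16 in the male line (adjusted p = 2.01e-09).

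Further genes lay outside the range of the other lines in both lot 7 lines or in 1 of them. They were picked by p in the test on line sums, but none passed it. In the female line its edgeR adjusted p was 0.437 for Tcf4, 0.692 for Ptgs1, 0.437 for Ptprf and 0.7115 for Stn1. Kazald1 did not pass in the male line. The p-values that follow compare the 2 lot 7 lines only. Tcf4 (a basic helix-loop-helix transcription factor) had 168, 230, 207 and 212 CPM in female libraries and 106, 125, 103 and 151 CPM in male libraries, both above the other lines (31.5 to 90.1 CPM; log2 fold change between the lot 7 lines 0.75, edgeR adjusted p = 6.35e-04). Ptgs1 (cyclooxygenase 1) averaged 51.2 ± 10.8 CPM in the female and 18.5 ± 7.54 CPM in the male line, both above the other lines (2.42 to 15.2 CPM; 1.47, adjusted p = 0.00875). Ptprf (a receptor tyrosine phosphatase) averaged 7.57 ± 1.45 CPM in the female line, below the other lines (22.2 to 51.5 CPM), and 24.5 ± 4.76 CPM in the male line (-1.69, adjusted p = 4.69e-07). Stn1 (a telomere maintenance protein) averaged 10.5 ± 1.15 CPM in the female line, below the other lines (23.3 to 45.4 CPM), and 38.5 ± 10.9 CPM in the male line (-1.87, adjusted p = 2.24e-07). Kazald1 averaged 4.14 ± 1.45 CPM in female libraries, against 20 ± 3.79 CPM in the male line, which was above the other lines (2.33 to 9.16 CPM; -2.27, adjusted p = 3.50e-04).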

How the data were processed

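The deposited table holds raw counts per gene, per the labels, all of them whole numbers. GRCm38, Subread 2.0.2, STAR 2.7.6a and cutadapt 2.10 appear in the submitters' processing notes. The libraries carry molecular identifiers, per the labels' protocols, but whether the authors collapsed them, and the strand setting of the counting, are not given in the sources used here, so intervals and floors hold for counting error alone. GENCODE M21 gave names to 45229 of the 46078 identifiers, and the 849 without one held 0.0295% of counts. The same-line library pairs of lot 7 all differed by more than sampling noise.

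All 36 libraries were fitted with 1 coefficient per line by edgeR 4.0.16 (filterByExpr with a minimum count of 10, TMM scaling, quasi-likelihood test; R 4.3.3, limma 3.58.1), and p-values were adjusted by Benjamini-Hochberg over all genes tested, with a threshold of 0.05. Low genes that passed the filter through the line in which they are high had to differ, so list counts carry no test. The difference within lot 7 was tested against the mean difference in the other 4 lots in the same fit. Each lot 7 line was tested against the 8 lines of other lots on sums per line, with all p-values adjusted likewise. Line medians and distances used log2 CPM with a prior count of 2. Alternatives were DESeq2 1.42.0, limma voom, other scalings and filters, a test against a 2-fold change, the lot 7 libraries alone, a replicate block, thinned counts, and leaving out each lot 7 library, each other line or both replicate 4 libraries. The method was tested on simulated counts.

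The pair, the lists and the rule for named genes were chosen with earlier results of these data known. Taken were the 10 highest and the 10 lowest fold changes of called autosomal protein-coding genes with a mean of 3 or more in log2 CPM, up to 4 called members of each list by p, up to 5 genes per line and side in the departure test, and Nf1, Trp53, Xist, Ddx3y, Rela, Nfkb1 and Stat3. Of the 165 genes it took, part are given, and 1 gene is not reported here. Promoter sequences come from RefSeq.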

Additional observations from a re-analysis of the deposited data

Results flagged for a closer look

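In 10 of the 190 groups of 4 libraries looked at (5.26%), 1 library lay far from the other 3, and chance marks about 1 in 20 groups. In the lot 7 female line, the high libraries were replicate 4 for Serpinh1 (704 CPM), replicate 1 for Fbln5 (116 CPM), replicate 3 for Ereg (6.71 CPM) and Rc3h2 (346 CPM), and replicate 2 for Hoxa7 (0.175 CPM) and Gm14036 (5.95 CPM). The low female libraries were replicate 4 for Rela (35.8 CPM) and replicate 2 for Sars (229 CPM). In the lot 7 male line, the low libraries were replicate 3 for Col18a1 (40.4 CPM) and replicate 4 for Ccl2 (12.3 CPM).

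For 71 of the 90 genes given and tested, the difference within lot 7 departed from the mean difference between the sexes in the other 4 lots by the interaction term (edgeR, adjusted over all genes tested). The values that follow are that departure on the log2 scale, positive where the lot 7 female line was relatively higher. Largest among the positive ones were Dlx5 6.22, Itga11 4.78, Crct1 4.68, Rc3h2 4.53, Il1rl1 3.81, Nrep 3.61, Cdkn1a 3.48, Alkal1 3.26, Serpinf1 2.85, Itga1 2.67, Chac1 2.54, Fbln5 2.32, Col12a1 2.32, H2-T23 2.29 and Acta2 2.28. Next came Snai2 2.21, Mgll 2.18, Ptgs1 2.17, Ccn2 2.13, Inhba 2.03, Lmod1 1.85, Col5a1 1.78, Timp3 1.77, Ifitm3 1.72, Lox 1.67, Dusp1 1.59, Hey1 1.59, F3 1.51, Cnn1 1.45 and Herpud1 1.36. The smaller positive ones were Cebpd 1.35, Ifi35 1.34, Tcf4 1.20, Itgb5 1.12, Col4a2 1.09, Il6st 1.02, Asns 0.91, Myl9 0.90, Ccnd2 0.88, Sars 0.83, Atf4 0.83, Ltbp1 0.79, Serpinh1 0.78, Sparc 0.69 and P4hb 0.60. Among the negative ones, the lowest were Plvap -5.27, Tmem176a -4.76, Gm13736 -4.73, Ccl5 -3.94, Col18a1 -3.87, Cxcl14 -3.76, Aebp1 -3.54, Rgs2 -3.43 and Tuba1c -3.29. They were followed by Tinagl1 -3.12, Trim47 -3.04, Kazald1 -2.34, Spp1 -1.98, Cdh13 -1.84, Ereg -1.70, Stn1 -1.59, Ptprf -1.57 and Ccl2 -1.52. The remaining ones were Ccnd1 -1.45, Eno3 -1.45, Nfkbia -1.41, Axl -0.98, Etv4 -0.91, Trp53 -0.76, Vcam1 -0.75 and Rpsa -0.45.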

How the results depend on the processing

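Over the alternatives run, the values of the genes given kept their direction and side of the threshold in 1932 of the comparisons with the reported value. In 56 they kept the direction and lost the call, most of them in the test against a 2-fold change, in 7 they gained it, and in 0 they reversed. Against a 2-fold change, 80 genes were higher and 72 lower. Of the 1266 calls, 660 (52.1%) held in every fit that left out 1 lot 7 library, with 267 to 375 lost at a time. The replicate numbers were not used as pairs, since the labels do not say that they mark a shared batch and residuals of same-numbered lot 7 libraries correlated at -0.00879 to 0.0828. As a hint from the data that they may share something, 5 of 8 libraries correlated best with their own number, and replicate 4 stood apart in both lines by its mitochondrial share. The same low share was seen in replicate 4 of both lines of lot 8 (0.606 and 0.54%) and of lot 11 (0.652 and 0.695%). Lots 6 and 12 have no replicate 4. A replicate block within lot gave 761 genes higher and 853 lower, with 39 ribosomal protein genes and 8 S phase and mitosis genes lower, and the lot 7 libraries alone with a block gave 747 and 723. Departures from the 8 other lines varied most. DESeq2 called 14 above and 17 below in the female line and 10 below in the male line, and voom 6 above in the female line. The count below in the female line was 0 without the lot 8 male, the lot 12 female or the lot 12 male line, and 0 to 1 over all fits that left out a library or line. A fit over 36 libraries, chosen after seeing the data, which treats libraries as replicates, called 1081 above and 796 below in the female line and 634 above and 476 below in the male line. The median distance was 0.18 in the female line, against 0.143 in the male line, for genes averaging 4 or more in log2 CPM, and 0.27 in the female line without both lot 6 lines. Over all genes tested, medians on chromosomes 1, 3, 5, 6, 9, 11 and 15 were -0.0113, 0.0512, -0.0567, 0.105, -0.231, -0.00448 and 0.0976, where the genes added are the lower ones. The causes of the other shifts were not tested. Both lines had 0 counts of many genes, and at 3 counts per library, levels under 0.586 CPM in the female and 0.476 CPM in the male line were not detectable in the shallowest library.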
